A study of Homo sapiens with 16 samples.

Results

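PC3 xenograft tumors that lacked DDX4 were compared with control PC3 tumors across all genes. PC3 is an established human line from a bone metastasis of prostate cancer, and a xenograft is a tumor that such cells form in a host animal. The comparison holds 8 of the 16 libraries of the study, 4 labelled control and 4 labelled DDX4-null, and the other 8 libraries are PC3 monolayer cells of the same genotypes. The libraries were chosen by their labels alone, and poly(A) RNA was sequenced. The monolayer libraries served to sort genes into those with a mean of at least 1 CPM in culture and those below it. For that boundary CPM is the count relative to the library total. Other levels are TMM-scaled CPM unless library totals are named. A gene below that boundary may owe its tumor reads to the host. The host, its age, the way DDX4 was removed, and whether the DDX4-null cells were 1 clone are not stated in the sources used here. Nor do the labels tell if each tumor came from its own animal, and the p-values therefore reflect the spread among these 8 libraries only, part of which may be technical.

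DDX4 is an ATP-dependent RNA helicase of the DEAD-box family that is best known from germ cells, where it sits in cytoplasmic RNA granules and takes part in the piRNA pathway. The piRNA pathway uses small RNAs to silence transposons in the germ line. A tumor grown in an animal is a mixture, because host fibroblasts, vessels, leukocytes, muscle and skin lie in and around the human cells. Reads of such host cells can be counted on the human gene of similar sequence.

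The tumor libraries held 12204254 to 25443952 counts. DDX4-null tumor 1 stood apart from the other 7. It lay at 53.4 on the first principal component, which carried 44.2% of the variance, and the other 7 lay between -26.1 and 11.5. The sum of 20 fibroblast markers was 12900 CPM in that library and 2360 to 2960 CPM in the other 7. Results that may rest on it are therefore also given without it. PC3 epithelial and mesenchymal genes were present in every tumor, with means of 233 CPM of KRT8 and 1800 CPM of VIM in controls. The prostate markers KLK2, KLK3 and FOLH1 held 0, 1 and 3 counts over all 8 tumors.

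The targeted gene itself had few reads. DDX4 counts were 5, 2, 3 and 3 in the control tumors and 3, 2, 2 and 4 in the tumors labelled DDX4-null, so the groups overlapped. On log2(CPM + 0.5), with CPM by library totals, the exact permutation test (two-sided) gave p = 0.886, where 70 splits allow no p below 0.0286. At this depth no difference of DDX4 could be detected, and its RNA does not check the labels.

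By edgeR's quasi-likelihood test with Benjamini-Hochberg adjustment, 270 of 12942 tested genes (2.09%) passed an adjusted p of 0.05. The count depended on the model, with 880 genes by DESeq2 and 808 in an edgeR model of all 16 libraries, and 2763 genes (21.3%) had an unadjusted p under 0.05. In simulated counts of this comparison 27.3% of changes of 0.5 on the log2 scale were recovered, so small changes were mostly not called. Of the 270 genes, 127 rose (0.981%) and 143 fell (1.1%), with changes of at least 2-fold in 38 and 28 of these. The median size of the called changes was 0.65 on the log2 scale, and the median change of all tested genes was -0.0006. For comparison, 12.5% of tested genes had groups that did not overlap (5.59% higher and 6.93% lower in DDX4-null tumors), and 268 of the called genes were among them. With genes ranked by level and cut into 4 equal parts, 1.79% of the lowest part and 2.60% of the next to highest were called. In every fit that left out 1 library, 25 of the 270 genes stayed called (0.193% of tested genes), and 14 were called in none of those 8 fits. Without control tumor 3 the count was 26, without control tumor 2 it was 47, and without control tumor 1, DDX4-null tumor 2 or DDX4-null tumor 3 it was 134, 129 and 129. Without DDX4-null tumor 1, 289 genes were called, and 220 of the 270 were among them.

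**Figure D1:**
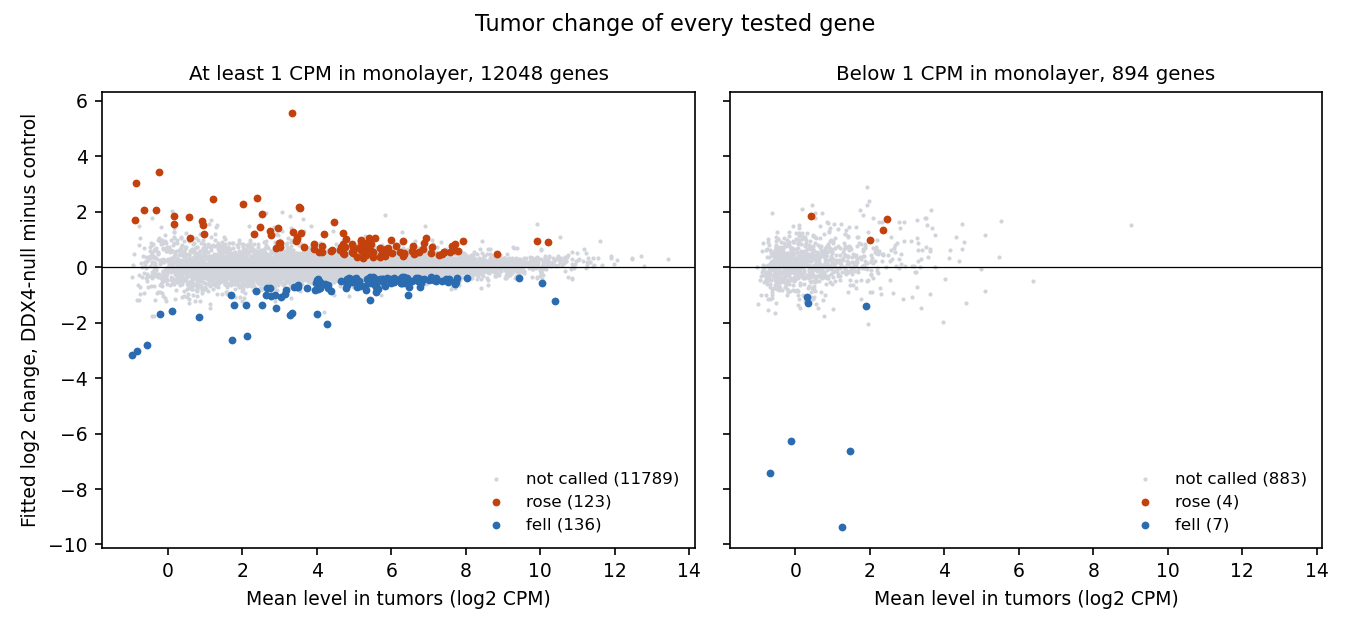
Fitted log2 change from control to DDX4-null tumors (y axis) against the mean tumor level in log2 CPM (x axis) for 12048 genes of at least 1 CPM in monolayer and 894 genes below it, each point a gene. Genes that rose are orange, genes that fell are blue, and the 4 lowest blue points of the right panel are genes with 0 to 3 counts in the DDX4-null tumors, whose fitted changes are not measured sizes.

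By class, the called genes were 259 of 12048 genes (2.15%) of at least 1 CPM in monolayer and 11 of 894 genes (1.23%) below it. Groups did not overlap in 5.67% (higher) and 7.2% (lower) of the former, and in 7.83% (4.59% higher, 3.24% lower) of the latter. In the first class 123 rose (1.02%) and 136 fell (1.13%), and the median change was -0.0055. In the second class 4 rose (0.447%) and 7 fell (0.783%), and the median change was 0.16, or 0.06 without DDX4-null tumor 1. That library had the highest value of the DDX4-null group in 41.2% of the genes below 1 CPM and in 31.7% of the others. It was at least 2-fold above each of the other 7 libraries in 97 of the 894 genes (10.9%), against 77 of the 12048 (0.639%). Genes below 1 CPM held 0.590% of its counts, 0.248% to 0.306% in the other DDX4-null tumors, and 0.246% to 0.296% in the control tumors.

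Among genes expressed in monolayer, at 1 CPM or more, the rises that kept their call in every fit without 1 library were led by TCN1, which encodes a secreted vitamin B12 binding protein. TCN1 stood at 0.290, 0.184, 0.797 and 0.209 CPM in the control tumors and at 12.4, 27.6, 26.9 and 12.2 CPM in the DDX4-null tumors. Every DDX4-null tumor was thus more than 10 CPM above every control, a log2 change of 5.57 ± 0.45 (SE, adjusted p = 0.000755). KRT75, a keratin of the companion layer of the hair follicle, stood at 4.21, 3.31, 3.95 and 5.06 CPM in controls and at 25.8, 22.8, 13.7 and 12.4 CPM in DDX4-null tumors. DDX4-null tumors 1 and 2 were the highest, and the groups did not overlap (2.17 ± 0.25, adjusted p = 0.00371). CD33, a sialic acid-binding receptor known from myeloid cells, held 2.32, 1.23, 1.10 and 0.991 CPM in controls and 8.10, 7.64, 4.80 and 6.28 CPM in DDX4-null tumors (2.28 ± 0.29, adjusted p = 0.00439). Of 8 tested leukocyte markers 0 were called, against 2.09% of all tested genes. A positive change was seen in 6 of the 8, with a list median of 0.36 (0.22 without DDX4-null tumor 1). The myeloid receptor CSF1R had means of 8.25 and 18.6 CPM (adjusted p = 0.163) and the pan-leukocyte PTPRC means of 4.46 and 3.21 CPM (adjusted p = 0.270) in control and DDX4-null tumors. CD33 also rose in monolayer cells, from a mean of 1.31 to 2.78 CPM. That was a log2 change of 1.09 (adjusted p = 0.00168 in the 16-library edgeR model). The part of leukocytes in the CD33 change in tumors was not tested.

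NELL2, a secreted guidance protein of neurons, held 3.19, 1.9, 2.16 and 2.45 CPM in controls and 12.5, 7.69, 9.18 and 7.12 CPM in DDX4-null tumors (1.91 ± 0.23, adjusted p = 0.00392). NTN4, a netrin of basement membranes, rose as well, from between 63.0 and 76.9 CPM to between 104 and 133 CPM (0.77 ± 0.10). The DNA glycosylase NEIL1, which starts base excision repair, went from between 2.30 and 3.56 CPM to between 7.18 and 9.28 CPM (1.44 ± 0.18). The Ras-like GTPase DIRAS1 (1.42 ± 0.16), the T-type calcium channel CACNA1H (1.01 ± 0.13) and the GATA cofactor ZFPM2 (2.46 ± 0.29) were the other named rises of this class that kept their call in all 8 fits. For these genes the largest adjusted p without 1 library was 0.0364, that of NTN4.

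Other genes of this class fell and kept their call in every fit without 1 library. WASF3, an activator of branched actin, stood at 17.1, 14, 15 and 14.9 CPM in controls and at 4.73, 4.61, 6.04 and 3.82 CPM in DDX4-null tumors, with little spread in either group (-1.66 ± 0.16, adjusted p = 0.00185). The metalloprotease ADAM12 stood at 10, 5.58, 7.13 and 6.57 CPM in controls and at 1.64, 1.85, 0.770 and 0.971 CPM in DDX4-null tumors. Control tumor 1 was the highest, and every control lay above every DDX4-null tumor (-2.49 ± 0.29, adjusted p = 0.00371). EPHA4, a receptor for ephrins, held 9.94, 6.68, 8.39 and 8.24 CPM in controls and 3.55, 2.81, 3.38 and 3.11 CPM in DDX4-null tumors (-1.38 ± 0.17, adjusted p = 0.00439). The cadherin CDH7 (-2.81 ± 0.40) and the microtubule-binding protein MAP7 (-0.76 ± 0.10) fell too. TGM2, a transglutaminase that crosslinks proteins, went from 55.7, 59.5, 64.1 and 59.4 CPM in controls to 29.8, 30.8, 24.9 and 20.6 CPM in DDX4-null tumors (-1.17 ± 0.12, adjusted p = 0.00229). SYNE2, a nesprin that ties the nucleus to the cytoskeleton (-0.99 ± 0.12), MYBL2, a transcription factor of the cell cycle (-0.91 ± 0.11), and POFUT1, which adds fucose to Notch (-0.71 ± 0.08), completed the named falls of this class that no single library carried. TGM2, MYBL2 and POFUT1 are genes of chromosome 20 and SYNE2 is a gene of chromosome 14.

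**Figure D2:**
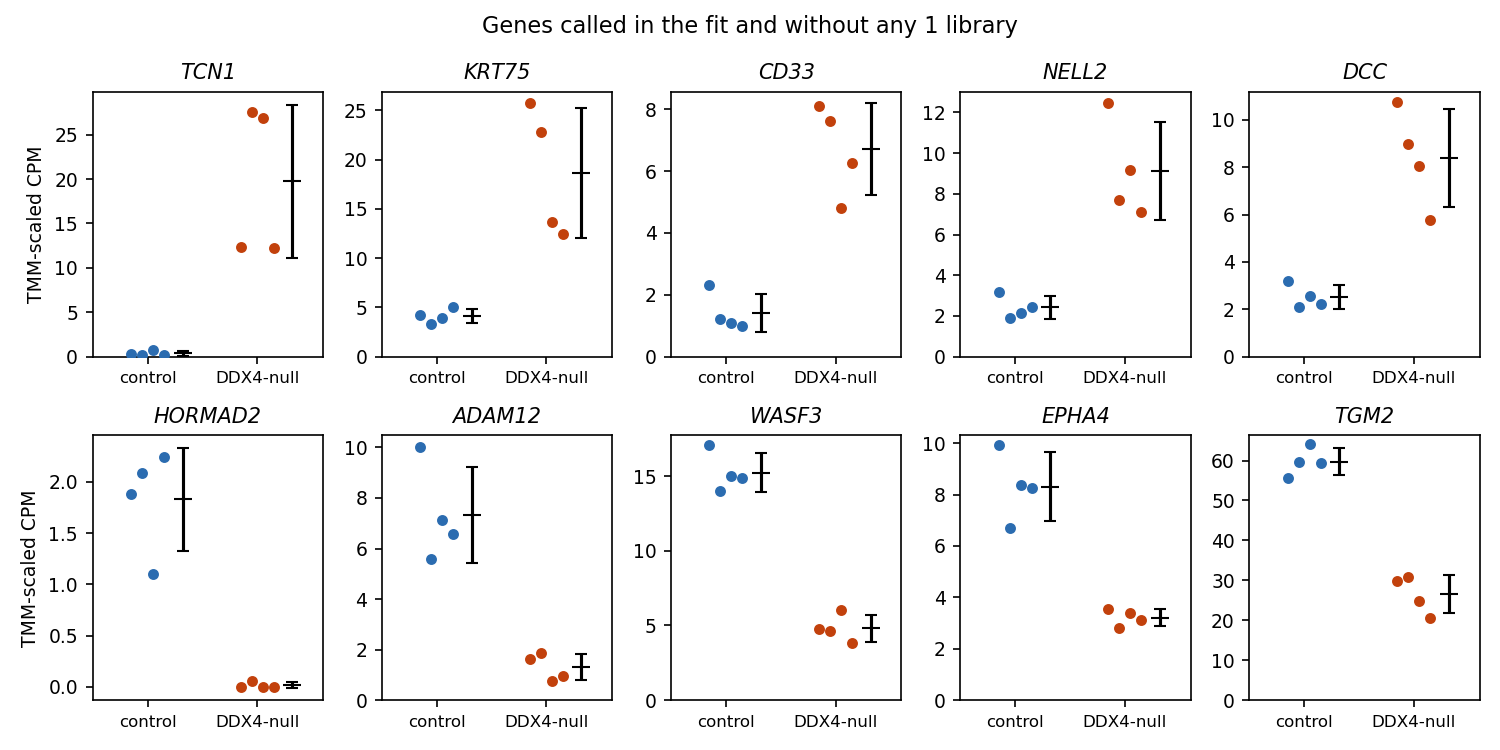
TMM-scaled CPM (y axis) of 10 genes in each control (blue) and DDX4-null (orange) tumor, with the mean and SD of 4 libraries beside the points. In each panel the 4 DDX4-null libraries lie wholly above (TCN1, KRT75, CD33, NELL2, DCC) or below (HORMAD2, ADAM12, WASF3, EPHA4, TGM2) the 4 controls.

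Other large changes lost their call when a library was left out, and for each of the 40 named genes concerned control tumor 3 was such a library. KIRREL3, an adhesion protein of the immunoglobulin family, had a control library apart from the rest, with 0.435, 0.0613, 0.0759 and 0.0522 CPM against 1.55, 2.02, 1.24 and 1.36 CPM in DDX4-null tumors (3.44 ± 0.51). Its adjusted p was at most 0.0678, and it was lost without control tumor 2 or 3. SHISA2 (2.51 ± 0.40), the fatty acid receptor FFAR4 (1.85 ± 0.30) and the hair keratin KRT86 (-1.68 ± 0.27) were lost without the same 2 libraries, with largest adjusted p-values of 0.0726, 0.0726 and 0.0654. The cadherin CDH6 (-1.80 ± 0.29) and RNF43, a ubiquitin ligase that limits Wnt signalling (1.29 ± 0.21), were lost without control tumor 3 alone, each at 0.0726. The plasminogen activator inhibitor SERPINB2 (2.14 ± 0.44), the C-type lectin CLEC2B (2.07 ± 0.44), ZNF516 (2.06 ± 0.42) and the junction protein JAM3 (1.85 ± 0.35) were called in 3 or 4 of the 8 fits. The same was so of SYT14 (-2.61 ± 0.49), the nicotinamide methyltransferase NNMT (-1.72 ± 0.35) and the choline transporter-like SLC44A3 (-1.69 ± 0.32). Over these 7 genes the largest adjusted p without 1 library was 0.130, that of SERPINB2.

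Falls were concentrated on chromosomes 20 and 14. Of 352 tested genes of chromosome 20, 39 fell (11.1%) and 1 rose, and of 436 of chromosome 14, 27 fell (6.19%) and 2 rose. These chromosomes held 66 of the 143 falls (46.2%) and 6.09% of the tested genes. Of the 12154 other tested genes, 160 of them not placed on chromosomes 1 to 22 or X, 77 fell (0.634%) and 124 rose (1.02%). The falls on chromosomes 20 and 14 were smaller than those elsewhere, with median log2 changes of -0.49 and -0.75.

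Within chromosome 20 all 39 falls lay on the long arm, where 39 of 241 genes fell (16.2%) and 209 of 241 had a negative change (86.7%). Its genes had a median change of -0.27, against 0.03 for the 111 genes of the short arm, none of which fell. In the 4 control tumors the long-arm median of log2 CPM, each control relative to the mean of the other 3, was -0.08, 0.08, 0.03 and -0.04. In the DDX4-null tumors, relative to the mean of the 4 controls, it was -0.29, -0.26, -0.28 and -0.24. Medians by library of other segments and of the gene lists below are given in the same way. All 4 DDX4-null libraries were therefore lower by a similar amount, DDX4-null tumor 1 included. Chromosome 14 was cut into 3 parts of nearly equal gene number in chromosome order. Its last part resembled the long arm, with 19 of 146 genes fallen (13.0%), a median change of -0.29, and medians of -0.28, -0.26, -0.26 and -0.27 in the DDX4-null tumors against -0.05 to 0.07 in controls. The middle part held 8 falls among 145 genes and the first part none among 145, with medians of -0.08 and 0.09. The arms and parts were chosen after these values were seen, and they were not tested as units. In monolayer cells the median change from control to DDX4-null was 0.0046 on the long arm of chromosome 20, 0.39 on its short arm, and between -0.46 and -0.55 in the 3 parts of chromosome 14. Among fits without 1 library the chromosome 20 median stayed between -0.20 and -0.17 and that of chromosome 14 between -0.12 and -0.08, while the falls on them numbered 4 to 41 and 1 to 19. The 4 falls came without control tumor 3 and the 41 without DDX4-null tumor 1. When changes were centred by chromosome, 195 genes were called. Of these, 9 fell and 6 rose on chromosome 20, and 6 fell and 6 rose on chromosome 14.

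**Figure D3:**
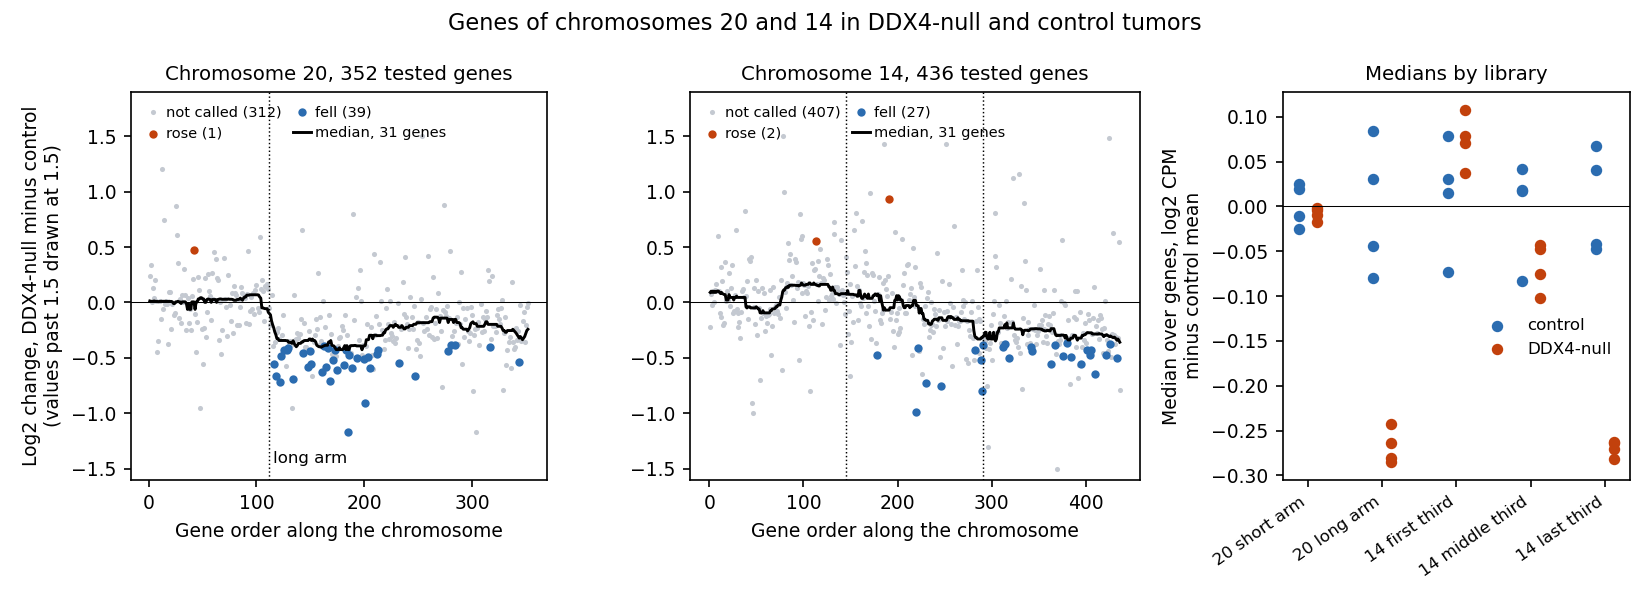
Left and middle, the log2 change of each tested gene of chromosomes 20 and 14 (y axis) by gene order (x axis), with the running median of 31 genes, the start of the long arm of chromosome 20 and the 3 parts of chromosome 14 as dotted lines. Right, the median of each segment in each library, each control relative to the other 3 and each DDX4-null tumor relative to all 4 controls. The 4 DDX4-null tumors lie between -0.24 and -0.29 for the long arm of chromosome 20 and the last part of chromosome 14, below all controls.

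The called members of the cell cycle lists all fell and are genes of chromosome 20. Of 29 tested genes of S phase and DNA replication 1 fell and 0 rose, and of 30 genes of G2 and mitosis 2 fell and 0 rose, against 1.1% of all tested genes that fell. E2F1, which drives entry into S phase, held 35.5, 44.8, 48.0 and 46.8 CPM in controls and 26.3, 26.5, 23.8 and 32.2 CPM in DDX4-null tumors (-0.69 ± 0.12, adjusted p = 0.0208). The spindle assembly factor TPX2 changed by -0.56 ± 0.11 (adjusted p = 0.0329) and the mitotic kinase AURKA, which TPX2 activates, by -0.44 ± 0.09 (adjusted p = 0.0373). After centring by chromosome these 3 genes had adjusted p-values of 0.0617, 0.103 and 0.148, and E2F1 was also lost without control tumor 2 or 3 or DDX4-null tumor 2 (at most 0.0888). TPX2 was lost without 4 of the libraries (at most 0.121) and AURKA without 6 (at most 0.144). Still, all 29 S phase genes and 28 of 30 mitosis genes had a negative change, with medians of -0.30 and -0.21. Without members on chromosomes 14 and 20 the medians were -0.28 over 25 genes and -0.21 over 26 genes, and no member was called. By library the S phase median was -0.21, -0.0026, 0.13 and 0.12 in controls and -0.15, -0.34, -0.36 and -0.22 in DDX4-null tumors, so control tumor 1 overlapped the DDX4-null group. The mitosis median was -0.21, -0.11, 0.225 and 0.06 in controls and -0.19, -0.18, -0.33 and -0.08 in DDX4-null tumors. Here control tumors 1 and 2 lay within the range of the DDX4-null group.

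The unfolded protein response raises chaperones and degradation factors of the endoplasmic reticulum when proteins misfold there, and the integrated stress response shares its branch through the factor ATF4. Of the 30 tested genes of both, 4 rose and 0 fell, against 0.981% of all genes that rose, and 25 had a positive change, with a median of 0.23 (0.19 without DDX4-null tumor 1). The list median lay at 0.01, 0.04, 0.11 and -0.17 in the control tumors and at 0.36, 0.28, 0.26 and 0.17 in the DDX4-null tumors, so the groups did not overlap. DDIT4, an inhibitor of mTORC1 that stress induces, held 61.7, 37.3, 40.2 and 30.7 CPM in controls and 98.2, 84.5, 84.0 and 70 CPM in DDX4-null tumors (0.99 ± 0.19, adjusted p = 0.0272). DNAJB9, a co-chaperone of the endoplasmic reticulum, held 25.8, 20.1, 22 and 27.4 CPM in controls and 46.5, 30.9, 42.9 and 36.2 CPM in DDX4-null tumors (0.71 ± 0.14, adjusted p = 0.0321). The transcription factor DDIT3 (CHOP) went from 58.1 to 74.8 CPM in controls to 88.5 to 93.2 CPM (0.42 ± 0.09, adjusted p = 0.0359). DNAJC3, another co-chaperone, went from 42.1 to 49.2 CPM to 55.3 to 78.5 CPM (0.50 ± 0.11, adjusted p = 0.0462). DDIT4, DNAJB9 and DDIT3 each lost their call without control tumor 2, control tumor 3 or DDX4-null tumor 3, among others, and DNAJC3 was called in 2 of the 8 fits without 1 library. The largest adjusted p of the 4 genes in those fits was 0.145. In monolayer cells DDIT4, DNAJB9 and DDIT3 changed the other way, by -1.41, -1.93 and -0.60, and the difference between tumor and monolayer change passed for each (adjusted p = 2.5e-08, 8.2e-10 and 2.8e-05).

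Motifs of the factors of this response were found in the promoters of 11 of the 30 members. The promoters are printed for 2 of them, HSPA5 and HERPUD1, whose groups did not overlap although neither passed the test. None of these 11 members with a motif was called. Their log2 changes ran from -0.06 (CRELD2) to 0.59 (CHAC1), with SDF2L1 at -0.01 and HYOU1 at 0.02. Every DDX4-null tumor lay above every control for 11 of the 30 members, with or without a motif, and for 5.59% of all tested genes. HSPA5, the main chaperone of the endoplasmic reticulum, held 1031, 924, 1095 and 852 CPM in controls and 1322, 1278, 1228 and 1144 CPM in DDX4-null tumors (0.35 ± 0.11, adjusted p = 0.108). HERPUD1, a factor of protein degradation there, held 167, 179, 173 and 165 CPM in controls and 233, 208, 205 and 203 CPM in DDX4-null tumors (0.31 ± 0.08, adjusted p = 0.0718). The sequences are the 250 bases before the gene start in RefSeq on GRCh38.p14, 5′ to 3′ on the gene's strand, with motif matches in capitals. HSPA5 (chr9:125241344-125241593, minus strand) carries the endoplasmic reticulum stress element, whose match is its run of capitals. HERPUD1 (chr16:56931892-56932141, plus strand) carries a C/EBP-ATF composite site (TGATGNAA, here on the other strand) and then the second endoplasmic reticulum stress element, as its first and last runs of capitals.
HSPA5: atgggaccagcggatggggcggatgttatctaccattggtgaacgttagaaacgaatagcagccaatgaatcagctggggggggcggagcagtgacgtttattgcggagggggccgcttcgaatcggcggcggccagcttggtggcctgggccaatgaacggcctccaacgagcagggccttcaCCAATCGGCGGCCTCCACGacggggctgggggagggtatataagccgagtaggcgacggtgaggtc
HERPUD1: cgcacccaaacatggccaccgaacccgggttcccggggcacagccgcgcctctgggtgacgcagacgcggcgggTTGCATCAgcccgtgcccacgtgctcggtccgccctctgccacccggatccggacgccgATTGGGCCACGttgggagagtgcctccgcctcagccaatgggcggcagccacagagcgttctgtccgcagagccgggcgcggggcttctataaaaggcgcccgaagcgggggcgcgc
The first stress element was found on either strand in 5 of the 30 promoters of the list (16.7%) and in 22 of 27305 promoters of this length (0.0806%), or 0.125% of those of tested genes. The second was in 3 of 30 (10%), against 0.0513% of all promoters and 0.106% of those of tested genes. The composite site was in 4 of 30 (13.3%) against 3.19% and 1.49%, and TGACGTGG in 1 of 30 (3.33%) against 0.667% and 0.714%. The list is made of known genes of this response, so these shares describe the list and not the tumors. DDIT4, DNAJB9, DDIT3 and DNAJC3 held none of these letters in that window, which says nothing of sites outside it. Among the genes that rose, 0 of 96 with a promoter held the first element and 2 of 96 the composite site (2.08%), and among those that fell 2 of 110 held the composite site (1.82%).

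The keratins of hair follicle and epidermis below 1 CPM in monolayer held, in sum, more counts in control than in DDX4-null tumors. Of these 16 genes 3 passed the filter on low counts and were tested. Of the 16 keratins of hair follicle and epidermis below that boundary, 15 had counts in the control tumors, 12 of them had 0 counts in all 4 DDX4-null tumors, and 2 more had 3. Over all 16, the control tumors held 83, 502, 1231 and 76 counts and the DDX4-null tumors 8, 19, 6 and 7, or 6.02, 30.8, 46.7 and 3.97 CPM against 0.728, 1.07, 0.355 and 0.453 CPM. All 4 controls were above all DDX4-null tumors, with control tumors 2 and 3 far above the other 2 controls. KRT71, a keratin of the inner root sheath, held 21, 115, 258 and 13 counts in controls and 0 in DDX4-null tumors. It was at least 110-fold lower, against a floor of 3 counts over the group (adjusted p = 0.0359). KRT25, of the same sheath, held 9, 122, 330 and 22 counts in controls and 0, 3, 0 and 0 in DDX4-null tumors, a ratio of 130 (95% counting interval 44.3 to 633, adjusted p = 0.0285). KRT85, KRT73 and KRT35 held 288, 157 and 156 counts in the control group and 0 in the DDX4-null group, and like 9 other keratins with control counts they did not pass the filter on low counts and were not tested. KRT71 and KRT25 passed that filter through the control tumors alone, and most of their counts came from control tumors 2 and 3. KRT71 lost its call without 6 of the libraries and KRT25 without 5, and their largest adjusted p-values were 0.105 and 0.0845. In the 8 monolayer libraries KRT71 and KRT25 held 0 counts. In bulk tissue, fewer cells of a type and less RNA per cell cannot be told apart.

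Keratins that PC3 cells themselves express in culture also differed. Of the 5 tested genes of the hair and epidermis list with at least 1 CPM in monolayer, 1 rose and 3 fell. With the 3 tested genes below it, KRT71 and KRT25 among them, the list had 1 rise and 5 falls. Of all tested genes 0.981% rose and 1.1% fell. The median of the list was -1.35, the same with KRT71 set to its bound. KRT81 held 1606, 2386, 1671 and 1932 CPM in controls and 414, 1017, 675 and 1140 CPM in DDX4-null tumors (-1.23 ± 0.27, adjusted p = 0.0420), and KRT83 changed by -1.48 ± 0.30 (adjusted p = 0.0341). These 2 genes and KRT86 are near-identical copies, so their reads may be split between them and their single values are uncertain. Their falls may therefore not be separate ones. KRT81 and KRT83 were each called in 2 of the 8 fits without 1 library. KRT75, described above, rose, and in monolayer cells it also rose, by 9.36 on the log2 scale.

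**Figure D4:**
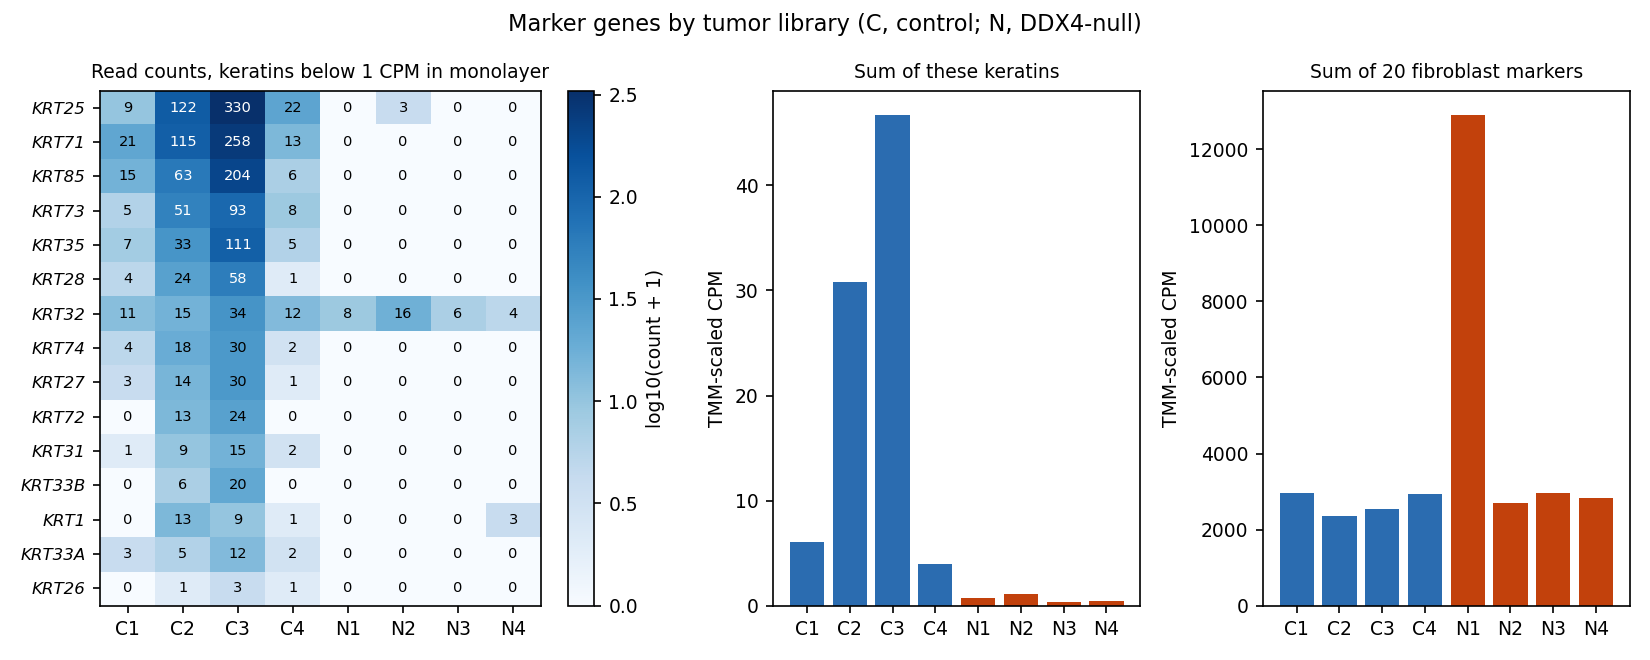
Left, read counts of 15 keratins of hair follicle and epidermis with a mean below 1 CPM in monolayer, by control (C1 to C4) and DDX4-null (N1 to N4) tumor. Middle and right, summed CPM per library of the 16 keratins of that class and of 20 fibroblast markers, where N1 stands at 12900 CPM and the other 7 libraries at 2360 to 2960 CPM.

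The other called genes below 1 CPM in monolayer were of several kinds. DCC, the netrin receptor that guides axons, stood at 3.19, 2.08, 2.54 and 2.24 CPM in controls and at 10.7, 8.98, 8.05 and 5.76 CPM in DDX4-null tumors (1.74 ± 0.22, adjusted p = 0.00439), and it kept its call in all 8 fits without 1 library. HORMAD2, which acts on meiotic chromosomes, stood at 1.89, 2.08, 1.10 and 2.24 CPM in controls, or 132 counts, and had 1 count in the DDX4-null group, in tumor 2. The ratio was 107 (95% counting interval 18.8 to 4250, adjusted p = 0.00215). HORMAD2 was the 1 called gene among 9 tested genes of the germ cell and piRNA list, against 2.09% of all tested genes. LINC03010, a long noncoding RNA, had 94 counts over the controls and none in any DDX4-null tumor, a fall of at least 25.3-fold (adjusted p = 0.00371). HORMAD2 and LINC03010 kept their call in all 8 fits, and like KRT71 and KRT25 they entered the test through the control tumors alone. ZPLD1 (1.35 ± 0.25), the protocadherin PCDHGB7 (0.99 ± 0.20) and FFAR4 rose. CTTNBP2 (-1.31 ± 0.24), ZNF878 (-1.07 ± 0.24) and the secreted Wnt antagonist SFRP1 (-1.38 ± 0.31) fell. SFRP1 stood at 4.74 to 5.58 CPM in controls, 4.00 CPM in DDX4-null tumor 1 and 1.36 to 1.57 CPM in the other 3. ZNF878 was called in none of the 8 fits, SFRP1 in that without DDX4-null tumor 1, PCDHGB7 in 2, CTTNBP2 in 3 and ZPLD1 in 5, and their largest adjusted p was 0.156.

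Markers of other cell types did not pass the test in most lists, where 0.981% of all tested genes rose and 1.1% fell. Of 20 fibroblast markers 0 rose and 0 fell, and their median change was 0.98, or 0.17 without DDX4-null tumor 1. The type III collagen gene COL3A1 shows that library plainly, with 549, 394, 478 and 545 CPM in controls and 4010, 520, 626 and 588 CPM in DDX4-null tumors. The adventitial fibroblast gene PI16 stood at 0.552 to 1.31 CPM in controls and at 22, 1.29, 2.13 and 1.55 CPM in DDX4-null tumors (adjusted p = 0.117). The summed level of the leukocyte markers ran from 28.4 to 48.0 CPM in controls and from 31 to 95.9 CPM in DDX4-null tumors, and the B and T or NK cell markers MS4A1 and NKG7 were at 0 counts in all 8. Skeletal muscle markers varied within both groups, from 293 to 738 CPM in controls and from 196 to 745 CPM in DDX4-null tumors, with 0 of 19 called. Of 18 tested endothelial and pericyte markers the proteoglycan CSPG4 rose (1.15 ± 0.24, adjusted p = 0.0359, at most 0.130 without 1 library), and of 5 tested Schwann cell markers the myelin protein gene PMP22 (0.47 ± 0.11, adjusted p = 0.0498, at most 0.182). Both are above 1 CPM in monolayer cells, at 17.6 and 55.9 CPM by library totals. Summed endothelial markers ran from 112 to 122 CPM in controls and from 118 to 132 CPM in DDX4-null tumors.

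In the interferon, hypoxia and ribosomal lists 1 gene in all passed the test, against 2.09% of all tested genes. DDX4-null tumor 1 had the most extreme median of each list. Of 33 type I interferon response genes, antiviral genes that interferon switches on, 0 rose and 0 fell, and their median change was -0.48, or -0.16 without DDX4-null tumor 1. By library the median was -0.42, 0.42, 0.22 and -0.29 in controls and -2.60, 0.18, 0.18 and -1.44 in DDX4-null tumors, with tumors 1 and 4 low and tumors 2 and 3 within the control range. IFI27 had the largest difference among the members named, with 14.2, 35.9, 35.5 and 25.2 CPM in controls and 1.09, 16.9, 13.6 and 3.30 CPM in DDX4-null tumors (adjusted p = 0.137). The ubiquitin ligase HERC5 stood at 9, 11.8, 14.9 and 11.4 CPM and at 3.37, 11.2, 9.06 and 4.14 CPM (adjusted p = 0.220). Of 30 hypoxia and glycolysis genes 1 rose, and all 30 had a positive change with a median of 0.31, or 0.12 without DDX4-null tumor 1. That 1 was VEGFA, the endothelial growth factor that low oxygen induces. VEGFA held 130, 97.8, 98.2 and 83.2 CPM in controls and 186, 184, 180 and 131 CPM in DDX4-null tumors (0.74 ± 0.15, adjusted p = 0.0330), and it lost its call without 5 of the libraries (at most 0.123). Of 48 cytosolic ribosomal protein genes 0 were called while all 48 had a positive change, with a median of 0.23, or 0.09 without DDX4-null tumor 1. Library medians of the ribosomal list were 0.11, 0.11, -0.14 and -0.05 in controls and 0.645, 0.03, -0.09 and 0.30 in DDX4-null tumors. Those of the hypoxia list were 0.20, -0.09, -0.07 and 0.04 in controls and 0.76, 0.03, 0.10 and 0.23 in DDX4-null tumors. In both lists DDX4-null tumors 2 and 3 lay within the control range. Of 39 nuclear genes of oxidative phosphorylation and 13 mitochondrially encoded genes 0 were called, with medians of -0.13 and 0.32. DDX4-null tumor 1 held both the highest fibroblast sum and the most extreme interferon, hypoxia and ribosomal medians. DDX4-null tumor 4 had a fibroblast sum of 2830 CPM, within the control range. Its interferon, hypoxia and ribosomal medians were -1.44, 0.23 and 0.30. The part of fibroblasts in these medians was not tested.

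Signalling and surface gene lists gave 0 to 2 called members each, against 0.981% of all tested genes that rose and 1.1% that fell. Among SOX factors and stem cell surface markers, SOX4 (0.75 ± 0.14, adjusted p = 0.0272) and SOX9 (0.58 ± 0.12, adjusted p = 0.0335) rose in 13 tested genes, with SOX4 at 122 to 180 CPM in controls and 221 to 310 CPM in DDX4-null tumors. SOX9 stood at 158 to 198 CPM and 233 to 320 CPM. Among 27 Wnt genes RNF43 rose and SFRP1 fell, so the 2 members that changed both restrain the pathway and moved in opposite directions. RNF43 held 4.21, 4.72, 3.26 and 3.34 CPM in controls and 12.5, 9.99, 8.29 and 7.32 CPM in DDX4-null tumors. Of 16 genes of the insulin-like growth factor axis the receptor substrate IRS2 (0.88 ± 0.16) and the binding protein IGFBP2 (3.04 ± 0.61) rose, the latter from 0 to 0.228 CPM in controls to 0.728 to 1.46 CPM. Of 9 tested mucins MUC2 rose, from 7.97 to 13.5 CPM to 16.9 to 60.2 CPM (1.64 ± 0.34, adjusted p = 0.0351), and MUC5B fell, from 24.2 to 44.9 CPM to 2.37 to 16.2 CPM (-2.06 ± 0.44, adjusted p = 0.0390). Single members rose in 4 other lists, namely the RNA decay factor ZFP36 of the immediate early genes (0.71 ± 0.14), the crosslinking enzyme LOX of the mesenchymal genes (1.18 ± 0.26), the cytokine IL18 (0.52 ± 0.12) and the complement regulator CD55 (0.46 ± 0.10). SERPINB2 was the 1 called gene of 16 in the plasminogen list and ADAM12 of 26 in the metalloprotease list. Apart from ADAM12, each gene of this paragraph lost its call without control tumor 3 and at least 1 more library or, for RNF43, without that library alone, with a largest adjusted p of 0.167, that of CD55.

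Lists close to DDX4 itself and several others showed little, where 2.09% of all tested genes were called and 1.1% fell. Of 36 DEAD-box helicases and RNA granule proteins 1 fell, DDX24, a helicase gene of chromosome 14 (-0.38 ± 0.09, adjusted p = 0.0490), which was called in none of the 8 fits without 1 library and had an adjusted p of 0.108 after centring by chromosome. The median of the list was -0.04. No member was called among 23 genes of cholesterol and fatty acid synthesis, 16 of MHC class I antigen presentation, 20 of epithelial junctions and keratins, 16 of the EGF receptor family with MET and AXL, 23 TGF-beta ligands and targets, and 15 of the BCL2 family. Without DDX4-null tumor 1, 1 TGF-beta gene rose and 1 BCL2 family gene fell. The latter was BCL2L1 of chromosome 20 (-0.51, adjusted p = 0.0262). Named uncalled members included the activin subunit INHBB (-0.45 ± 0.12, adjusted p = 0.0776), the lipid regulator SREBF1 (0.32 ± 0.09, adjusted p = 0.0815) and the receptor ERBB3 (-0.61 ± 0.17, adjusted p = 0.0963).

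**Figure D5:**
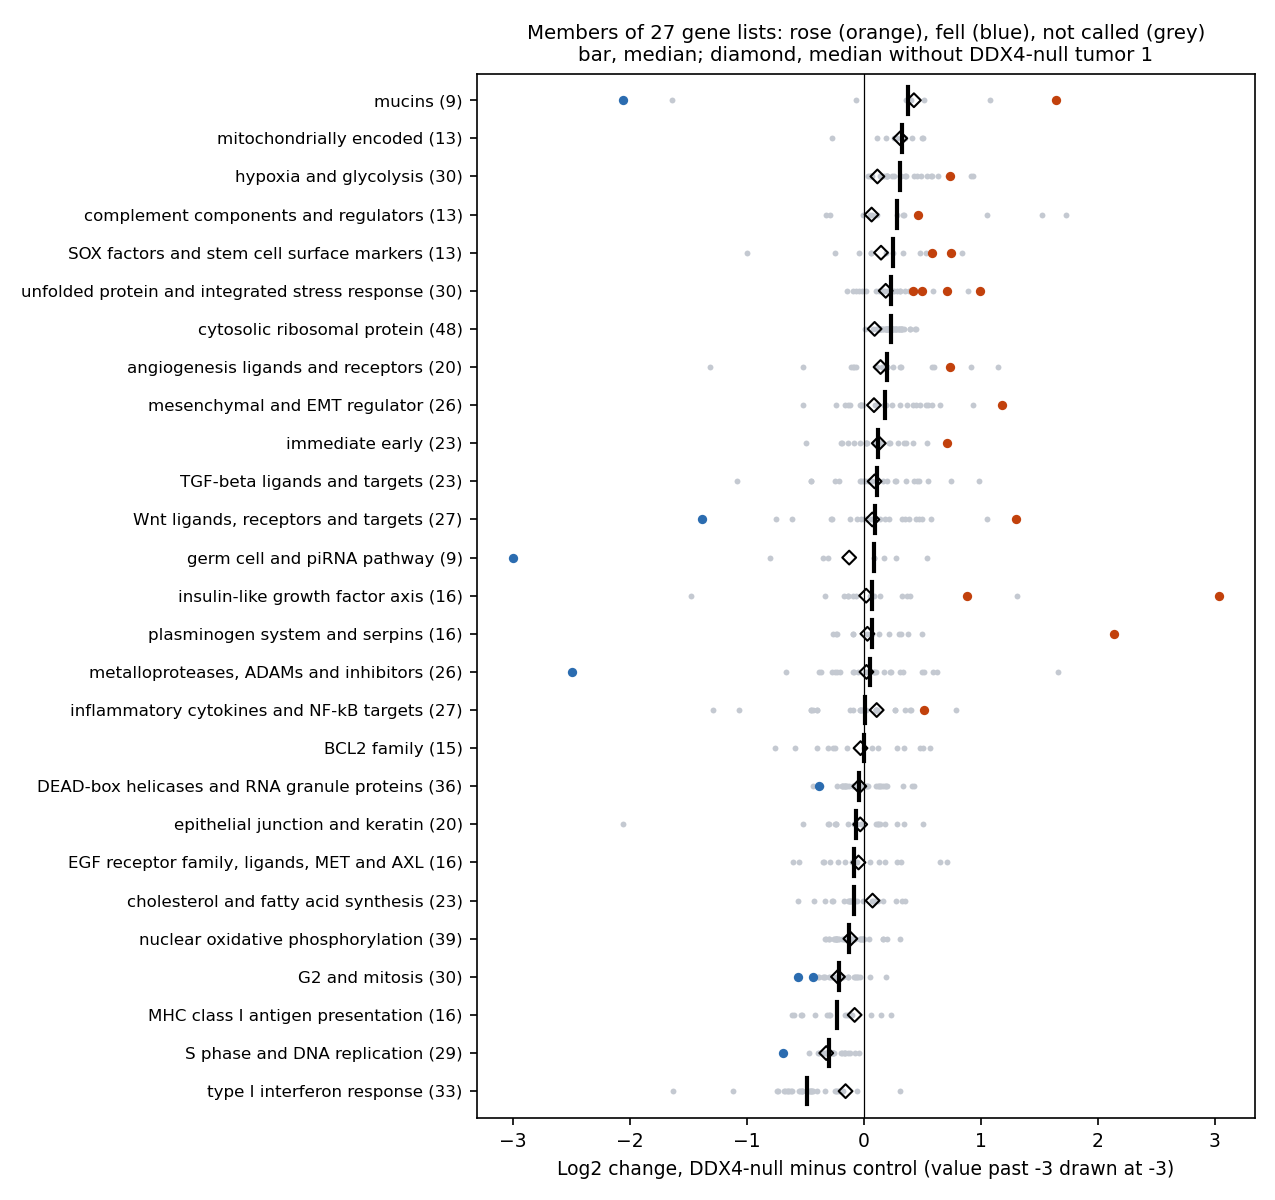
Log2 change from control to DDX4-null tumors (x axis) of each tested member of 27 pathway lists (y axis, with the number tested), orange for members that rose, blue for those that fell and grey for those not called. Bars are medians over 8 libraries and diamonds medians without DDX4-null tumor 1, which lie nearer 0 for interferon (-0.16 against -0.48), hypoxia (0.12 against 0.31) and ribosomal protein genes (0.09 against 0.23).

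The tumor changes were set beside those of monolayer cells in a model of all 16 libraries, in which 64.3% of 13603 genes were called in monolayer and 52.8% had a change that differed between tumor and monolayer. Of the 127 genes that rose in tumors, 56 rose, 47 fell and 24 were not called in monolayer. Of the 143 that fell in tumors, 52 fell, 44 rose and 47 were not called in monolayer. The tumor and monolayer changes of 185 of the 270 genes differed. TCN1 rose by 6.41 in monolayer, and its difference between settings did not pass (-0.85, adjusted p = 0.268). TGM2 and EPHA4 rose in monolayer, by 1.25 and 2.27, and fell in tumors, and their differences of -2.42 and -3.64 passed (adjusted p = 2.0e-10 and 4.4e-11). WASF3 and ADAM12 were not called in monolayer (0.32, adjusted p = 0.0817, and 0.29, adjusted p = 0.229), and their differences of -1.97 and -2.77 passed (adjusted p = 6.0e-07 and 5.3e-07). MYBL2 and E2F1 rose in monolayer by 1.08 and 0.75.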

How the data were processed

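Total RNA of 8 PC3 tumors, 4 control and 4 DDX4-null, and of 8 monolayer libraries was treated with DNase and made into libraries with a stranded poly(A) kit, per the labels' protocols. The deposited values are raw read counts per gene for 20356 Ensembl IDs, taken as deposited by the authors. Trimmomatic 0.39, STAR 2.7.10a, featureCounts 2.0.3 and GRCh37 are named in the submitters' processing notes. Not given in the sources used here are the annotation, the strand setting and whether host reads were removed.

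Symbols came from the name table for 18979 IDs and from GENCODE for 532, and 845 had none. Chromosome names, arms and gene order came from GENCODE v29, matched by ID. Genes were tested with edgeR 4.0.16 in R 4.3.3 (TMM, filterByExpr, quasi-likelihood F test, Benjamini-Hochberg threshold 0.05) in the 8 tumor libraries, and against monolayer in a 4-group model of 16. Changes are log2 ± SE and tumor levels TMM-scaled CPM, with n of 4 per group. The monolayer mean that set the class of a gene is CPM by library totals. Intervals and floors (3 counts, 0.118 to 0.246 CPM per library by library totals) cover counting error only, and every pair of replicates differed by more than sampling noise. Same-numbered tumors did not pair (correlations of deviations -0.08 to 0.20). On simulated counts of this comparison with 12942 genes, 27.3%, 81.5% and 96.9% of genes changed by 0.5, 1 and 2 were recovered, and 6.29% of calls were false.

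The members, the 37 gene lists and the rule for named genes were chosen with earlier results of these data known. Named were the 12 largest rises and falls with at least 1 CPM and no overlap, the 10 next smallest p-values, up to 3 called or 2 uncalled members per list, up to 12 called genes below 1 CPM, and up to 20 genes called in every fit without 1 library. HSPA5, HERPUD1, DNAJC3, KRT81, KRT83 and the untested keratins were named after their values were seen. Alternatives were DESeq2 1.42.0, other scalings and filters, a replicate block, a 16-library model, chromosome centring and leaving out each library. Leaving out chromosomes 14 and 20 was added after seeing the data. Of the 868 list entries 858 were matched and the others were not analysed here. Not every listed gene is reported here.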

Additional observations from a re-analysis of the deposited data

Results flagged for a closer look

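Single libraries stood far from the other 3 of their group in 12 of 190 gene groups and 1 of 20 groups of summed lists, and chance marks about 1 in 20 groups. DDX4-null tumor 1 was such a library for the summed fibroblast markers, at 12900 CPM against 2700 to 2960, and for SFRP2 (29.5 CPM against 4.72 to 6.16), PI16 (22 against 1.29 to 2.13), SHISA2 (16.4 against 5.76 to 7.40) and SFRP1 (4.00 against 1.36 to 1.57). DDX4-null tumor 2 held the group's reads of HORMAD2 (0.0562 CPM) and KRT25 (0.168 CPM), with 0 in the other 3. DDX4-null tumor 3 was above the others for ID2 (71.8 CPM against 66.9 to 67.6) and PCDHGB7 (6.75 against 4.66 to 4.98), and DDX4-null tumor 4 was below them for VEGFA (131 against 180 to 186). Among controls, tumor 1 was above the others for KIRREL3 (0.435 CPM against 0.0522 to 0.0759) and CD55 (444 against 362 to 375), and tumor 2 for KRT86 (32.2 against 21.4 to 22.8).

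The change from control to DDX4-null differed between tumors and monolayer cells for 20 of 24 genes tested for it, by the interaction term of the 16-library edgeR model. These 24 were chosen for the largest tumor changes, and 52.8% of all 13603 genes in that model differed. The tumor change minus the monolayer change was positive for MUC5B (8.41), SHISA2 (3.95), SERPINB2 (2.56) and CD33 (1.19). It was negative for KRT75 (-7.20), NELL2 (-4.88), SLC44A3 (-4.17), CLEC2B (-4.15), JAM3 (-4.04), ZNF516 (-3.61), NNMT (-3.55) and SYT14 (-3.13). It was negative too for KIRREL3 (-2.90), ADAM12 (-2.77), CDH7 (-2.36), CDH6 (-2.35), KRT86 (-1.07) and ZFPM2 (-0.97). The sign of the difference does not give the direction in monolayer. KRT75, NELL2, CLEC2B, JAM3, ZNF516, KIRREL3, ZFPM2 and CD33 rose in both settings, and MUC5B, CDH7 and KRT86 fell in both. SLC44A3, NNMT and CDH6 rose in monolayer and fell in tumors, and SHISA2 fell in monolayer and rose in tumors. SYT14, ADAM12 and SERPINB2 were not called in monolayer. The values of HORMAD2 (-3.81) and FFAR4 (5.34) depend on the prior count of the fit, since HORMAD2 had 1 count in the DDX4-null tumors and FFAR4 a mean of 0.0296 CPM in DDX4-null monolayer cells. The adjusted p of these differences was at most 0.0218.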

How the results depend on the processing

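The number of genes called depended on the tool and on single libraries, and no named gene reversed its direction. Against 270 calls, DESeq2 made 880 (481 higher, 399 lower) and the model of all 16 libraries 808 (470 higher, 338 lower). Leaving out 1 library gave 26 to 289 calls, with 11 to 182 higher and 15 to 131 lower. Centring by chromosome left 87 genes lower, and leaving out the genes of chromosomes 14 and 20, chosen after seeing the data, left 77. Scaling by library totals gave 97 higher and 168 lower and moved the median of all genes to -0.0658. Of genes at 1 CPM or more in monolayer, those called were 848 with DESeq2, 765 in the 16-library model and 23 to 274 without 1 library. Below 1 CPM they were 32, 43 and 3 to 15, and 17 with a filter of 1 count, 2 with a filter of 5 CPM and 19 with a boundary of 2 CPM. A replicate block gave 425 calls (258 higher), 404 of at least 1 CPM and 21 below it, but the tumors share only a number: same-numbered deviations correlated at 0.20, 0.19, -0.02 and -0.08. Of 61 named called genes 21 kept their call under each alternative that tested them and 49 under each of those that kept every library, and the filter of 5 CPM tested 40 of the 61. Of 629 list medians 16 moved by more than their spread. Depth limits DDX4 in all tumors and, in DDX4-null tumors, the keratins below 1 CPM in monolayer. The cause of these shifts was not tested.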
